A study of Kluyveromyces marxianus and Kluyveromyces lactis with 30 samples.

Results

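Of the 5320 annotated genes of the yeast Kluyveromyces lactis, 63 stood at least 2-fold above the 28C control in heat, in methyl methanesulfonate (MMS) and in caffeine alike. They were chosen by these values. Gene counts were scaled to a library total of 1e6 gene counts (counts per 1e6, CPM) and averaged over 3 libraries per condition. The log2 ratio of stress to control, with 1 CPM added to each, was reduced by its median over the 4561 genes with at least 10 CPM in controls, and this quantity is called r here. A gene was kept when r was 1 or more and the level 10 CPM or more in all 3 stresses. The series covers 10527 genes in K. lactis and Kluyveromyces marxianus, and no table used here pairs the genes of one with those of the other. All groups described here are strain yLB72 of K. lactis, which the labels list with no further mutation: heat at 39C, MMS, caffeine, ethanol, and the control at 28C, with 3 biological replicates each. The labels give no dose for the 3 agents and no temperature for the agent cultures. Every culture was diluted to an optical density of 0.05 and grown in its condition until it reached 0.4 to 0.85, so the libraries describe growth under a lasting stress.

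Yeasts answer many unlike stresses with a partly shared programme of transcription. In baker's yeast this common programme is known to include chaperones, enzymes of trehalose and glycogen storage and defences against oxidants, and the factors Msn2 and Msn4 drive much of it, while genes for ribosome production fall. The agents act in different ways: heat unfolds proteins, MMS alkylates DNA, caffeine inhibits the growth-controlling kinase complex TORC1 and disturbs the cell wall, and ethanol disorders membranes. K. lactis is a respiring, lactose-using relative of baker's yeast. Its gene IDs carry almost no names: 0 of the K. lactis IDs were found in the reference table, and 0 of 371 names on 13 lists of stress, metabolic, transport and repair genes matched an ID. Functions are therefore given for none of the genes below.

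RNA was captured by its poly(A) tail. The K. lactis libraries held 39.0 to 94.4 gene counts in ethanol and 16.9 to 50.9 in the other conditions, in units of 1e6. The ethanol libraries were counted with another program and on another feature type than the rest, so an ethanol difference cannot be told apart from a difference in counting. None of the 63 genes overlaps another gene, against 3.06% of all genes. In 1 coding part lie 61 of them, and 3.17% are in more than 1 part, against 4.62% of all genes. Both lie near the share of all genes and do not remove the difference in counting. MMS replicate 3 stood apart from its group, and the ethanol libraries lay far from each other. MMS replicate 3 differed from the other MMS libraries by a chi-square per gene of 339 and 370, against 29.6 between those libraries, where sampling noise alone gives about 1. Ethanol replicates 1 and 2 differed by 1301, and the other ethanol pairs by 460.1 (replicates 1 and 3) and 335 (replicates 2 and 3). Control pairs differed by 46.6 to 131, and heat and caffeine pairs by 17.6 to 33.6. This measure grows with depth, so the values of the deeper ethanol libraries cannot be set directly against those of MMS. Over the 63 genes ethanol replicate 1 tended to read lowest and ethanol replicate 2 highest, with median log2 deviations from the other ethanol libraries of -0.61 and 0.55. These are in CPM of raw totals and include a library-wide offset: the scaling factors of the fit (TMM) were 0.944 and 1.17 for these libraries. The main counts and medians are given below with and without MMS replicate 3 and each of these ethanol libraries.

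All 63 genes had every heat, MMS and caffeine library above every control library. The choice of genes favours this. Such a separation was also common among all 5124 genes tested, at 53.9% in heat, 70.6% in MMS and 65.9% in caffeine. It is read in CPM of raw totals, where the median gene was itself higher by 0.23, 0.78 and 0.45 on the log2 scale. Over the 63 genes r had a median of 1.71 in heat, 1.76 in MMS and 1.52 in caffeine, which are 3.27-fold, 3.39-fold and 2.86-fold. Its highest value was 5.16 in heat, 3.98 in MMS and 6.90 in caffeine. Taken singly, the same threshold was met by 601 genes in heat (11.3% of all genes), 469 in MMS (8.82%) and 383 in caffeine (7.2%). In all, 806 genes met it in exactly 1 of these stresses, 229 in exactly 2 and 63 in all 3 (1.18%). Without MMS replicate 3 the median r of the 63 in MMS was 1.79 and its highest 3.90, 5 of the 63 were under 1, and 491 of all genes met the threshold in MMS. These values describe the choice and carry no test.

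**Figure D1:**
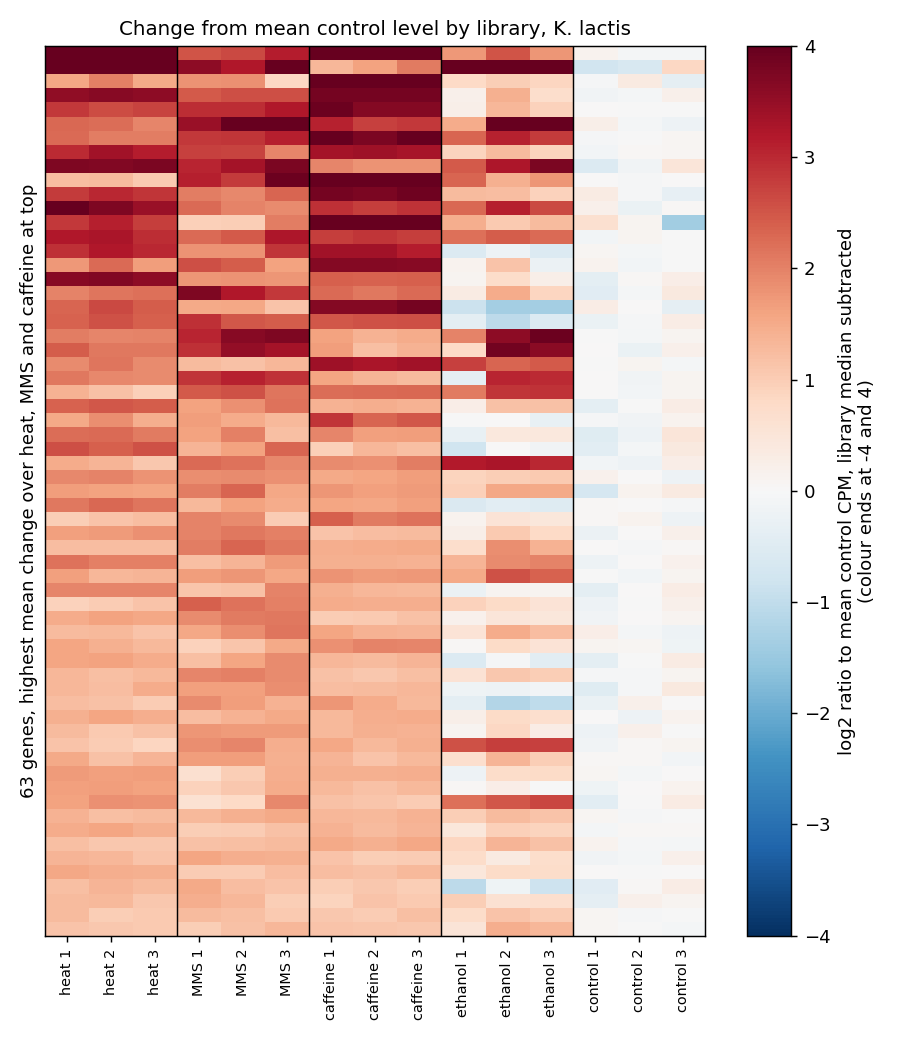
Colour gives, for each of the 63 genes (rows) in each of the 15 libraries (columns), the log2 ratio of its CPM to the mean control CPM, with 1 CPM added and the library's median over 4561 genes subtracted. Heat, MMS and caffeine libraries are above the control throughout. Single ethanol libraries run from -1.36 to 4.84, and ethanol replicate 1 is paler than replicates 2 and 3 for many genes.

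The 63 genes stood unequally high in the 3 stresses. Caffeine gave the highest r for 18 genes, heat for 19 and MMS for 26. The spread between a gene's highest and lowest r had a median of 0.80, was at most 1 for 37 genes and exceeded 2 for 7. An r of 2 or more, or at least 4-fold, was reached by 23 genes in heat, 25 in MMS and 22 in caffeine, and by 12 genes in all 3. Without MMS replicate 3 these last counts were 23 in MMS and 10 in all 3, and the highest r was in caffeine for 19 genes, in heat for 19 and in MMS for 25.

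KLLA0E24883g (chromosome 5, 2205689 to 2207464, plus strand) had the largest mean r. It measured 296, 356 and 259.6 CPM in heat, 70.8, 81.3 and 99.3 in MMS, 821, 807 and 876 in caffeine, and 7.06, 5.82 and 6.06 in controls. The stressed libraries lay far above the controls, with caffeine highest, and r was 5.16 in heat, 2.76 in MMS and 6.38 in caffeine. In ethanol it had 28.8, 63.3 and 32.6 CPM, again above every control.

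KLLA0C07777g (chromosome 3, 682962 to 684506, minus strand) came second and was highest in heat. Its levels were 722, 630.3 and 519 CPM in heat, 338, 267 and 420.1 in MMS, 55.3, 66.1 and 94.8 in caffeine, and 8.59, 9.29 and 28.2 in controls. Control replicate 3 was about 3 times the other controls, yet remained below all stressed libraries. The most unequal gene was KLLA0F25520g (chromosome 6, 2370884 to 2372155, minus strand), with 586, 459 and 513 CPM in caffeine against 2.05, 2.99 and 1.49 in controls. In heat it had only 10.2, 13.8 and 9.48 CPM, and in MMS 17.9, 19.0 and 7.78, so r was 6.90 in caffeine but 1.71 in heat and 1.55 in MMS. Its MMS mean rests in part on replicate 3, the lowest of that group, and without it r in MMS was 1.79.

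In counts, not corrected for length, the largest of the 63 under stress was KLLA0D04224g (chromosome 4, 363732 to 365654, plus strand). It reached 3649, 3461 and 3544 CPM in heat, 3263, 4097 and 4834 in MMS and 1209, 1077 and 1097 in caffeine, against 154, 204 and 323 in controls. KLLA0E20527g (chromosome 5, 1822412 to 1824364, plus strand) was next and highest in MMS, with 3317, 3987 and 3059 CPM there, 1366, 1158 and 1123 in heat, 1069, 911 and 874 in caffeine, and 269, 235 and 288 in controls. In both genes all stressed libraries lay well above the controls. The ID that carries a baker's yeast name, YER053C-A (chromosome 6, 2553291 to 2553404, plus strand), is the shortest of the 63 genes and moved more evenly, with r of 2.20 in heat, 1.65 in MMS and 1.76 in caffeine.

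**Figure D2:**
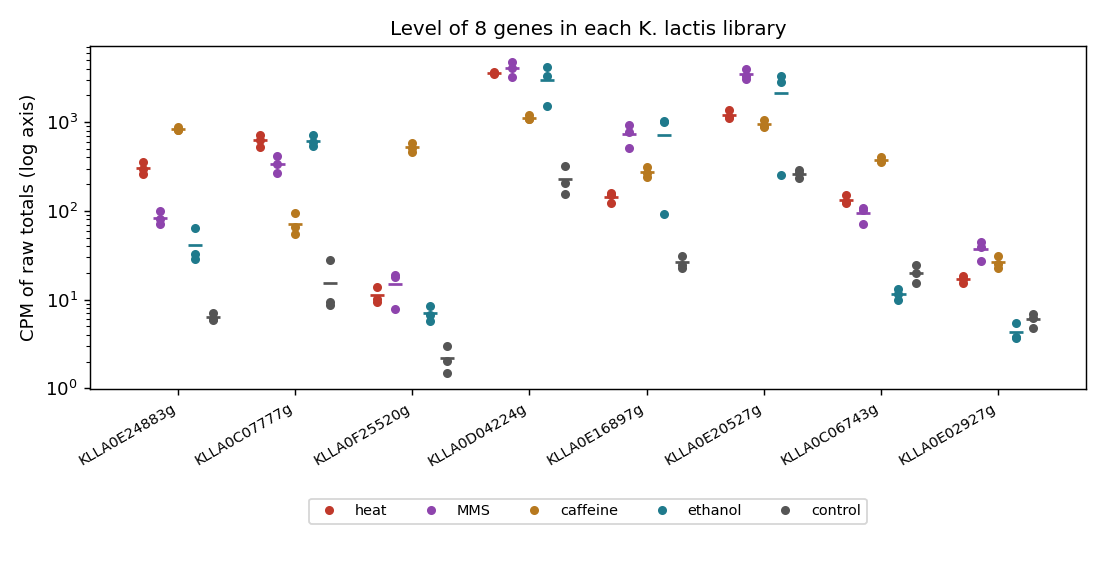
Each point is 1 library's CPM of raw gene totals on a log axis and each bar the mean of 3 libraries, for 8 genes in heat, MMS, caffeine, ethanol and control. KLLA0F25520g stands at 459 to 586 CPM in caffeine only, the ethanol points of KLLA0E16897g and KLLA0E20527g are split by replicate 1, and the ethanol points of KLLA0C06743g lie below its controls.

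Under control conditions most of the 63 genes were weakly expressed, and in heat, MMS and caffeine their median rank lay somewhat above the middle. The choice favours both, since it asks for a high ratio to control and for 10 CPM in each stress. The levels in these conditions are therefore a description. Per kilobase of exon, the median gene of the 63 stood at 65.9 CPM in heat, 88.9 in MMS, 79.5 in caffeine, 40.7 in ethanol and 12.9 in controls. The median over all 5320 genes was 42.3, 64.4, 49.9, 52.0 and 36.1 CPM per kilobase in the same order. As a rank among all genes by this level, the median percentile of the 63 was 62.5 in heat, 62.0 in MMS, 64.9 in caffeine, 41.0 in ethanol and 19.6 in controls. In controls 46 of the 63 were in the lower part of the ranking, under its midpoint, and 23 had a mean under 10 CPM. The genes were widely spread in heat, MMS and caffeine. In each of these 28 were under the midpoint, while 15, 15 and 16 were in the top 10% of levels. The level per kilobase in ethanol is measured in libraries that the choice did not use, but it carries the other counting method. Since the choice favours genes with a low control level, their rank in ethanol is not free of it. The median percentile in ethanol was 42.8 without ethanol replicate 1 and 37.1 without ethanol replicate 2, and in MMS it was 63.4 without MMS replicate 3.

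Together the 63 genes took 1.66% ± 0.077 of gene counts in heat, 2.22% ± 0.181 in MMS and 1.93% ± 0.0632 in caffeine, against 0.235% ± 0.0254 in controls (SD, n = 3 each). Without MMS replicate 3 the MMS share was 2.16%. The choice of genes favours the rise in these stresses, which is given as a description. In ethanol they took 0.744%, 1.86% and 1.74% in replicates 1, 2 and 3, each above every control. The 5 genes with the most counts in a condition made up 50.6% of this total in heat, 51.8% in MMS, 42.9% in caffeine, 59.9% in ethanol and 41.1% in controls, so the summed share follows a few genes.

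**Figure D3:**
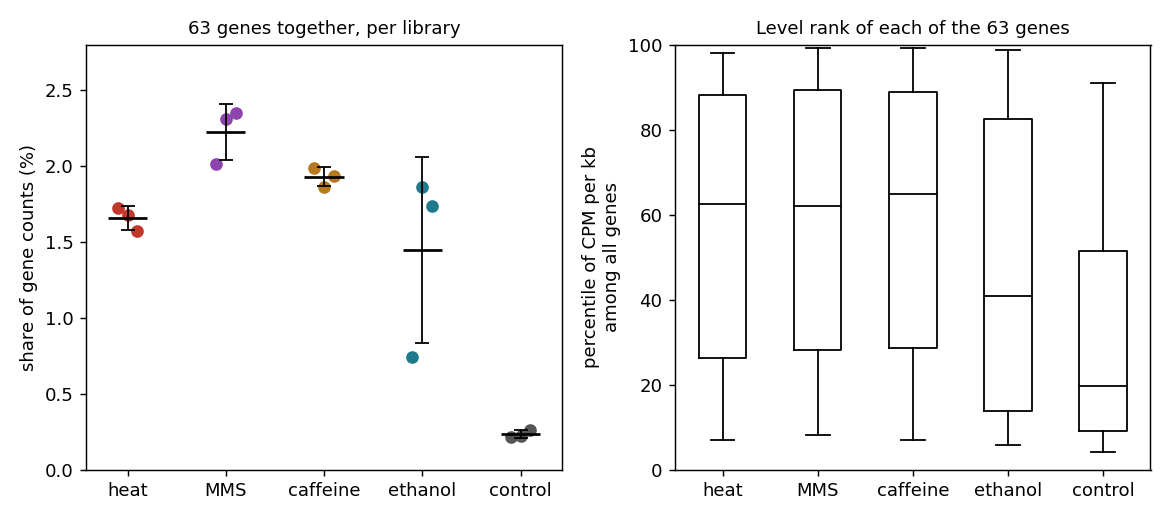
Left, the share of gene counts taken by the 63 genes in each library (points), with the mean (bar) and SD (whisker) of 3 libraries. Right, the percentile of each gene's CPM per kilobase among 5320 genes, with box at the quartiles, line at the median and whiskers at the extremes; the median is 19.6 in controls and 62.0 to 64.9 in heat, MMS and caffeine.

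The 63 genes were spread over all 6 chromosomes in about the proportions of all genes, from 6 on chromosome 1 to 15 on chromosome 6. None lay within 20 kb of the outermost annotated gene of a chromosome, but only 1.97% of all genes lie there, so this count says little. Within 100 kb lay 9 of the 63 (14.3%), against 10.5% of all genes. Their median exonic length was 1296 bases, against 1227 for all genes, and 12.7% were under 600 bases, against 19.5%. No tRNA gene was among them. By position, 15 genes (23.8%) had another of the 63 within 10 kb, while 11.3% of all genes lie that close to one. Immediate neighbours were fewer: 5 genes (7.94%) in 3 neighbouring pairs, while 2.31% of all genes lie next to 1 of the 63. These shares are descriptions without a test.

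Of those 5 genes, 3 formed an unbroken run on chromosome 5 around KLLA0E24883g, chosen for description after its values were seen. To its left, KLLA0E24861g (2203694 to 2204362, minus strand) starts from the same 1326-base gap and points away from it. It had 574, 682 and 524 CPM in heat, 227, 241 and 442 in MMS, 1838, 1914 and 1959 in caffeine, and 105, 70.8 and 25.0 in controls. To its right, KLLA0E24905g (2207777 to 2208331, minus strand) faces it across 312 bases, with 492, 551 and 495 CPM in heat, 427, 402 and 467 in MMS, 1142, 1076 and 1206 in caffeine, and 72.5, 55.0 and 46.9 in controls. All 3 genes were highest in caffeine, then heat, then MMS. The next gene to the right, KLLA0E24927g, is not among the 63: it met the threshold in heat (r of 1.18) and caffeine (2.45) but not in MMS (0.87). The nearest gene to the left, KLLA0E24817g, had r of 0.01 in heat, -0.34 in MMS and -0.56 in caffeine. No source used here gives the strand setting of the counting for these genes.

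**Figure D4:**
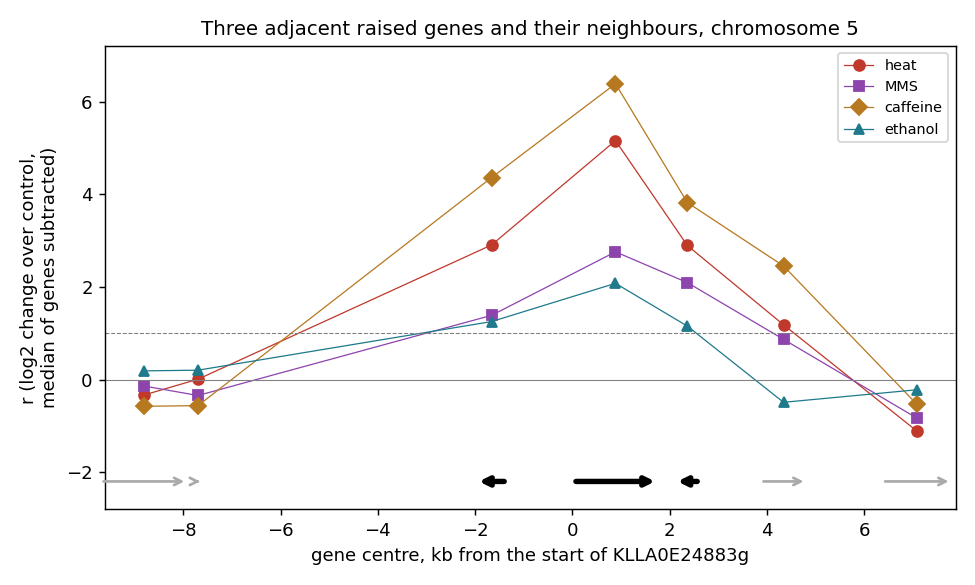
Points give r, the log2 change over control with the median of genes subtracted, for 7 consecutive genes placed by the distance of their centres from the start of KLLA0E24883g in kb; lines join the points of 1 condition and only guide the eye, and arrows give each gene's extent and strand (black for the 3 raised genes). The dashed line is the threshold of 1, which the 3 genes pass in all 4 conditions shown, with caffeine highest at 6.38.

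Ethanol was not used to choose the genes. The comparison asks whether genes high in heat, MMS and caffeine were also high in it. Each of the 63 genes was tested in a fit of all 15 libraries (edgeR quasi-likelihood, adjusted over 5124 genes by Benjamini-Hochberg). Of them 46 rose (73.0%, against 33.1% of all genes tested), 5 fell (7.94%, against 32.3%) and 12 did not pass. At least 2-fold increases were called in 31 of the 63 (49.2%, against 7.83%). The log2 change had a median of 0.98 over the 63 genes and of 0.00 over all genes tested, with quartiles of 0.50 and 2.02 for the 63. By the measure of the choice, 29 of the 63 had r of 1 or more and at least 10 CPM in ethanol (46.0%, against 6.73% of all genes). Without ethanol replicate 1 the same counts were 49 higher, 4 lower, 36 at least 2-fold higher and 35 by r, with a median log2 change of 1.13. Without ethanol replicate 2 they were 43 higher, 5 lower, 25 at least 2-fold higher and 25 by r, with a median of 0.83, and 3 of the 46 calls were lost. The shares of all genes tested moved too. They were 34.6% higher, 34.3% lower and 8.89% at least 2-fold higher without ethanol replicate 1. Without ethanol replicate 2 they were 27.6%, 31.4% and 6.12%. The ethanol comparison uses the same 3 control libraries as the choice, so genes that happened to read low in those controls are favoured in both. It also differs in counting method. Every ethanol library lay above every control, in CPM of raw totals, for 50 of the 63 genes (79.4%, against 58.0% of genes tested).

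The value of r in ethanol was below the gene's lowest r of heat, MMS and caffeine for 44 genes, between them for 11 and above all of them for 8. The choice asks for r of 1 or more in heat, MMS and caffeine and nothing of ethanol, so a low place for ethanol is favoured by the choice, and these counts are a description. The 12 genes with r of 2 or more in all 3 stresses had a median log2 change in ethanol of 1.08, with 10 called higher and 1 lower; the remaining 51 had a median of 0.91, with 36 higher and 4 lower. Set by the stress in which they stood highest, the 26 genes of MMS had 22 called higher and 3 lower in ethanol (median 1.06), the 18 of caffeine 13 and 1 (median 1.08), and the 19 of heat 11 and 1 (median 0.66). These medians are given side by side, since the comparisons share their controls, and no difference between them was tested.

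**Figure D5:**
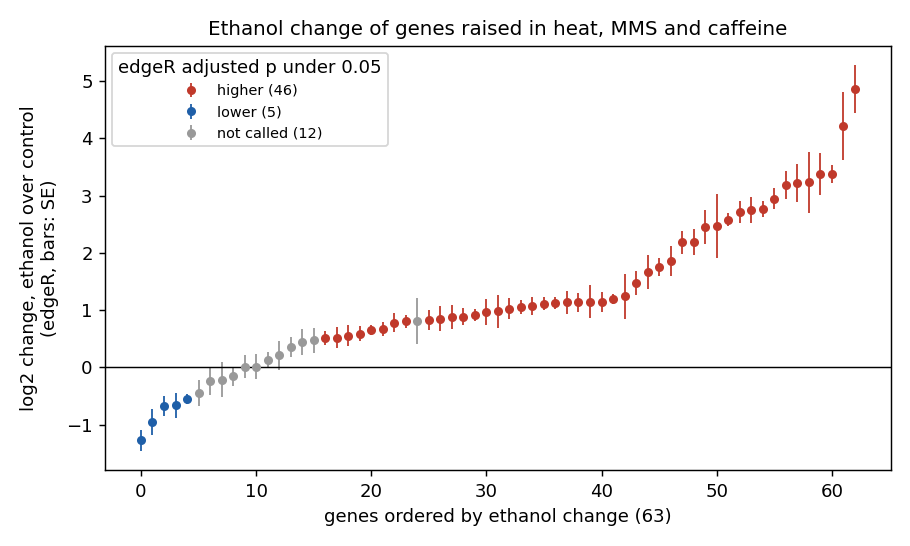
The log2 change between ethanol and control from edgeR is shown for the 63 genes in order of size, with its standard error; red marks the 46 called higher, blue the 5 called lower and grey the 12 not called at an adjusted p of 0.05. Values run from -1.27 to 4.86.

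The largest ethanol change belonged to KLLA0C07777g, at 532, 718 and 604 CPM in ethanol against 8.59, 9.29 and 28.2 in controls, with no overlap. Its log2 change was 4.86 ± 0.42 (SE, edgeR adjusted p = 4.21e-07). It was 4.57, 4.60 and 5.60 without control replicates 1, 2 and 3 in turn. KLLA0E16897g (chromosome 5, 1500700 to 1503177, plus strand) followed, with 93.3, 1011 and 1036 CPM in ethanol against 31.2, 24.7 and 22.9 in controls. Its log2 change was 4.21 ± 0.60 (edgeR adjusted p = 3.46e-05). It was 4.72, 3.93 and 3.75 without ethanol replicates 1, 2 and 3 in turn. All ethanol libraries of both genes lay above all controls, but those of KLLA0E16897g were far apart.

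KLLA0E16897g illustrates a split among the ethanol libraries. In CPM of raw totals, ethanol replicate 1 was below both other ethanol libraries for 50 of the 63 genes, and more than 2-fold below both for 7. Ethanol replicate 2 was above both other ethanol libraries for 51 genes, and more than 2-fold above both for 1. The scaling factors of the fit (TMM) were 0.944, 1.17 and 1.03 for ethanol replicates 1, 2 and 3. A library-wide offset in the same order is therefore part of these counts, and their share over all genes was not taken. The widest splits were in 4 genes that were all highest in MMS among the 3 stresses of the choice and that are named here after their values were seen. KLLA0E20527g had 252, 3333 and 2858 CPM in ethanol replicates 1, 2 and 3, against 269, 235 and 288 in controls, so replicate 1 lay within the controls. KLLA0D17446g (chromosome 4, 1489480 to 1490667, minus strand) had 169, 1755 and 1310 CPM in ethanol, against 78.6, 63.3 and 91.8 in controls. KLLA0F05093g (chromosome 6, 502635 to 503753, minus strand) had 217, 831 and 923 CPM in ethanol, against 43.3, 40.9 and 47.8 in controls. In these last 2 genes replicate 1 was above the controls and well under the other ethanol libraries. Without ethanol replicate 1 the log2 change of KLLA0E20527g was 2.99, against 2.47 with it, and without ethanol replicate 2 it was 2.07. The reason for the split was not tested.

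The 5 genes that fell in ethanol were led by KLLA0C06743g (chromosome 3, 590585 to 592126, minus strand). It had 13.2, 11.5 and 9.99 CPM in ethanol against 24.4, 19.9 and 15.3 in controls, and was the only 1 of the 63 with every ethanol library below every control (13.9% of all genes tested were so placed). Its log2 change was -1.27 ± 0.19 (edgeR adjusted p = 4.6e-05), although it had 362, 357 and 407 CPM in caffeine, 124, 151 and 128 in heat and 103, 109 and 70.3 in MMS.

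KLLA0E02905g (chromosome 5, 265432 to 266232, minus strand) and KLLA0E02927g (267778 to 268788, minus strand) are immediate neighbours, the only other neighbouring pair among the 63, and both fell. KLLA0E02905g was even across the choice, with r of 2.44 in heat, 2.61 in MMS and 2.54 in caffeine, but had 22.1, 17.0 and 21.8 CPM in ethanol against 19.1, 22.1 and 29.1 in controls (log2 change -0.68 ± 0.18, edgeR adjusted p = 0.0048). KLLA0E02927g had 5.51, 3.78 and 3.67 CPM in ethanol against 4.84, 6.91 and 6.18 in controls (log2 change -0.96 ± 0.23, edgeR adjusted p = 0.00204). In both the libraries overlap in CPM of raw totals, and the call comes after library scaling, which puts the median gene at 0; in raw totals the median gene was 0.47 higher in ethanol on the log2 scale. The same holds for KLLA0F09427g and KLLA0F03190g, with log2 changes of -0.55 ± 0.09 (edgeR adjusted p = 8.15e-05) and -0.66 ± 0.21 (edgeR adjusted p = 0.015). The KLLA0F03190g call was lost without ethanol replicate 1 (adjusted p = 0.06), without control replicate 3 (adjusted p = 0.081) and in a fit of the ethanol and control libraries alone (adjusted p = 0.0681).

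The 12 genes that did not pass had log2 changes in ethanol from -0.45 to 0.81, with edgeR adjusted p from 0.0721 to 0.949. Among them was YER053C-A, with 31.6, 64.8 and 58.0 CPM in ethanol against 22.3, 27.0 and 44.8 in controls (log2 change 0.22 ± 0.25, edgeR adjusted p = 0.467). The ethanol libraries overlapped the controls there, while in heat the same gene had 181, 181 and 156 CPM. As a group these 12 had median levels of 16.9 CPM in ethanol and 11.5 CPM in controls, with 43.3 CPM in heat, 52.3 in MMS and 48.8 in caffeine.

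The threshold cuts through a continuous range. The 3 genes just inside it had a smallest r of 1.01 in caffeine, 1.01 in heat and 1.02 in MMS, and the 3 just outside had 1.00 (0.999 before rounding) in caffeine, 1.00 (0.995) in heat and 0.97 in heat. In 11 of the 63 genes the smallest r was under 1.1. With 1 of the 12 libraries left out, the rule kept from 55 to 63 of the 63 genes. Without control replicate 1 it gave 59 genes, of which 55 were among the 63, the largest loss for any of these libraries. Without MMS replicate 3 it also gave 59 genes, of which 58 were among the 63. Without control replicate 3 it gave 81 genes, of which 62 were among the 63. In CPM of raw totals that control read above both other controls for 37 of the 63 genes. This was not examined for the added genes or for all genes, and the reason for the larger count was not tested.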

How the data were processed

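The authors deposited raw counts for 15 K. lactis libraries, with no normalization. TopHat and HTSeq are named in the submitters' processing notes without a version. The ethanol files were made with featureCounts 1.6.3 on exon features, per the file headers; the other files list counts by coding part in HTSeq style. No source used here gives the genome build or the HTSeq strand setting; coordinates were taken from the ethanol files. Parts were summed to genes. Reads on no feature (4.68% to 8.04% per library outside ethanol) and ambiguous reads stayed out of totals and tests.

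Levels are CPM of raw totals. Ethanol was tested against control in edgeR 4.0.16 (R 4.3.3): filterByExpr, TMM, quasi-likelihood, group as the only term, 15 libraries, 2-sided, Benjamini-Hochberg over the genes tested, called at an adjusted p under 0.05. Standard errors derive from the F statistic. The filter kept all 63 genes, and each of the 63 met its minimum in the 3 control libraries alone. The fit was tested on simulated data. DESeq2 1.42.0 was an alternative. The genes, lists and tests were chosen with earlier results of these data known. Genes were named by rule where no table gives names: up to 2 for the largest mean r, the largest and smallest ethanol change, the highest level and the most unequal r, and IDs carrying a gene name; other IDs were named after their values were seen. K. marxianus values were not used here.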

Additional observations from a re-analysis of the deposited data

Results flagged for a closer look

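KLLA0C06743g moved one way in heat, MMS and caffeine and the other way in ethanol: every library of the first 3 conditions lay above every control, and every ethanol library lay below every control, with a log2 change of -1.27 in ethanol. The difference between the ethanol change and the other changes was not tested, because the heat, MMS and caffeine values chose the gene.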

How the results depend on the processing

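The number of genes chosen was 59 to 81 when 1 of the 12 libraries behind the choice was left out. It was 40 with a pseudocount of 5 CPM, 119 with a threshold of 0.8 and 41 with a threshold of 1.2, which by their construction ask for a larger or smaller change. The counts in ethanol stayed at 43 to 49 higher and 4 to 6 lower, and the median log2 change at 0.83 to 1.13, over RLE scaling, no count filter, DESeq2, the fit of 6 libraries, the replicate block, each ethanol or control library left out, and the 61 genes in 1 coding part. The same 46 and 5 genes were called with RLE scaling, no filter, DESeq2 and the replicate block. In total 4 genes lost their call under at least 1 of the alternatives, 3 called higher and 1 called lower. For the 9 genes named by rule, no ethanol call or called direction changed in any of the 11 alternative fits. Those 9 do not include the genes just inside the threshold, where KLLA0F03190g lost its call as lower. The replicate number gave no sign of pairing between ethanol and control libraries. Deviations of same-numbered libraries correlated at -0.23, -0.21 and 0.13 across genes, and those of differently numbered libraries at -0.14 to 0.29. Deviations within a group of 3 are tied to each other, so these values cannot exclude a pairing, and the other conditions were not examined. With the replicate block 46 genes were called higher and 5 lower (median 0.97). Comparisons with K. marxianus counterparts and promoter motifs were not run, as the files used here pair no genes and hold no promoter sequence. Depth limits few of these genes, but 23 had control means under 10 CPM, where a fold change is least certain.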
